A study of Mus musculus with 9 samples.

Results

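The 9 genes described here are Runx1, Erg, Fli1, Meis1, Hhex, Lyl1, Spi1, Ikzf1 and Gfi1, transcription factors of hematopoietic stem cells and of several blood lineages. They were picked by gene name, with earlier results of these data known, out of the 19840 names to which the transcript records of the files could be matched. All 9 were found. Runx1 had 4 transcript records and Ikzf1 had 2, and the record with the highest mean stood for the gene.

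RNA-seq had been run on erythroid cells of C57BL/6 fetal liver taken between embryonic days 13.5 and 14.5, with 1 library for each of 9 conditions. Fresh BFU-E, the early erythroid progenitors named burst-forming units, were Kit-positive cells that lacked CD34, CD41, CD16/32, Gr-1, CD3, Mac-1, B220 and Ter119, and they came from the 10% with the least CD71, the transferrin receptor. Fresh CFU-E, the colony-forming units that follow them, had the same surface profile but came from the 20% with the most CD71. Fresh Ter119+ erythroblasts carried Ter119 and lacked Kit. For culture, BFU-E gated on low CD71 (the CD71 sort), or on low CD71 and low CD24a together (the CD71/CD24a sort, again 10% of the cells), first spent 4 h in serum-free expansion medium containing SCF (100 ng/mL), IGF-1 (40 ng/mL) and EPO (2 U/mL). They then received an agent or water for 4 h more. The CD71 sort was divided between 100 nM dexamethasone (Dex), a synthetic glucocorticoid, and water. The CD71/CD24a sort was divided into 4 parts, given 100 nM Dex with 333 µM DMOG, an inhibitor of the oxygen-sensing prolyl hydroxylases, or 100 nM Dex, or 333 µM DMOG, or water. No label says how many embryos were pooled, and every arm of a sort came from the same sorted cells.

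Runx1, Erg, Fli1 and Lyl1, with Tal1, Lmo2 and Gata2, form a group of factors known as the heptad, which bind together at many enhancers in blood stem and progenitor cells. Erg, Fli1 and Spi1 are ETS-domain factors, Runx1 binds DNA through its runt domain beside the partner CBFβ, Meis1 and Hhex carry homeodomains, and Lyl1 is a basic helix-loop-helix factor closely related to Tal1. Spi1, which encodes PU.1, and Ikzf1, which encodes Ikaros, also direct myeloid and lymphoid cells, and PU.1 and GATA1 are known to oppose each other. Gfi1 is a zinc-finger repressor of stem cells and neutrophils, whose paralog Gfi1b acts in red cells and megakaryocytes.

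Values are deposited RPKM, that is reads per kilobase of transcript scaled to library size, divided by 1 scaling factor per library taken over 6888 genes, and are written below as normalised RPKM. Library depths, worked out from the smallest steps between RPKM values, were 11.9 to 52.8 M reads, at which 3 reads on a 1 kb transcript are worth 0.0569 to 0.253 RPKM. The scaling factor was 0.419 for Ter119+ cells and 1.02 to 1.18 for the other 8 libraries. The sorted stages carried the RNA that their gates call for. Tfrc, which encodes CD71, had 18.9, 104 and 1040 normalised RPKM in BFU-E, CFU-E and Ter119+ cells, and Kit had 175, 83.0 and 2.45. The BFU-E library also held RNA of some genes whose proteins were gated out, with 44.0 normalised RPKM of Itga2b (CD41) and 12.8 of Cd34. Others of the gate were lower there, with Ptprc (B220) at 3.82, Fcgr3 (CD16) at 0.755, Itgam (Mac-1) at 0.382, Cd3g at 0.150 and Cd3e at 0.

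The first question was how the stem and multilineage factors differ between the stages. With 1 library a stage there is no replicate check, so a gene was called only where log2(normalised RPKM + 1) differed by at least 1 and at least 1 of the 2 libraries reached 1 normalised RPKM. The intervals given are exact 95% intervals of the recovered reads, and they cover counting error only. In CFU-E, 6 of the 9 genes were lower than in BFU-E (Runx1, Erg, Fli1, Meis1, Hhex and Spi1), none was higher, Lyl1 and Ikzf1 were within the limit, and Gfi1 was under 1 normalised RPKM in both. Over all 9947 expressed genes, 12.3% were lower and 3.32% were higher by the same rule. The median difference of the 8 expressed members was -2.89, against -0.08 for all expressed genes.

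Among the 8 expressed members, the factors with the lowest CFU-E to BFU-E ratios were the ETS pair of the heptad. Fli1, known for its role in megakaryocytes and in stem cell enhancers, had 12.8, 0.138 and 0.661 normalised RPKM in BFU-E, CFU-E and Ter119+ cells, from 826, 12 and 16 reads. BFU-E stood far above both later stages, and the CFU-E level was 92.9-fold lower (interval 51.8 to 177). The Ter119+ to CFU-E ratio of Fli1 was 4.81 (interval 2.09 to 10.9). Both levels were under 1 normalised RPKM, so no call was made. Erg, which stem cell maintenance in the mouse requires, had 6.82, 0.122 and 0.307 normalised RPKM, from 432, 10 and 7 reads. Again only BFU-E was above 1 normalised RPKM, and CFU-E were 55.9-fold lower (interval 30.7 to 120). The Ter119+ to CFU-E ratio of Erg was 2.52 with an interval of 0.798 to 7.19, which includes no difference.

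The runt-domain member differed by less and remained well measured in all stages. Runx1, required for the first definitive blood cells to form, had 16.7, 6.42 and 5.37 normalised RPKM in BFU-E, CFU-E and Ter119+ cells, from 1902, 968 and 230 reads. Its CFU-E level was 2.59-fold lower than that of BFU-E (interval 2.40 to 2.81). Between Ter119+ cells and CFU-E the log2 difference was only -0.22, within the limit for a call.

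Both homeobox members were low after the BFU-E stage. Meis1, a partner of PBX and HOX proteins, had 9.80, 0.366 and 0.0890 normalised RPKM in BFU-E, CFU-E and Ter119+ cells, from 639, 32 and 2 reads. Its CFU-E level was 26.8-fold lower than that of BFU-E (interval 18.5 to 38.9). Hhex, which embryonic blood, endothelium and liver need, had 28.7, 2.79 and 0.231 normalised RPKM, from 1008, 129 and 3 reads. Each stage was below the stage before it, CFU-E 10.3-fold (interval 8.58 to 12.5) and Ter119+ cells a further 12.1-fold, where 3 reads leave an interval of 4.08 to 59.9. Hhex was the only member called lower in Ter119+ cells than in CFU-E.

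Lyl1 and Ikzf1 made up most of the summed level of the 9 genes in every fresh library, and neither was lower by the rule in CFU-E. Lyl1 had 88.5, 80.2 and 422 normalised RPKM in BFU-E, CFU-E and Ter119+ cells, from 3101, 3712 and 5535 reads. It was nearly level between the progenitors (ratio 0.906, interval 0.864 to 0.951) and 5.26-fold higher in Ter119+ cells than in CFU-E (interval 5.04 to 5.48). Its relative Tal1, the central helix-loop-helix factor of erythroid cells, had 66.8, 92.3 and 601 normalised RPKM, so the Lyl1 to Tal1 ratio was 1.32, 0.868 and 0.702 across the 3 stages. Ikzf1, a zinc-finger factor of lymphoid cells that also binds globin loci, had 87.3, 112 and 73.9 normalised RPKM, from 8776, 14875 and 2782 reads. CFU-E were highest and, with scaling, the levels of the 3 stages lay within a factor of 2 of each other, with a CFU-E to BFU-E ratio of 1.28 (interval 1.25 to 1.32) and a Ter119+ to CFU-E ratio of 0.660 (interval 0.633 to 0.687). Without scaling the Ikzf1 difference between Ter119+ cells and CFU-E was -1.94 on the log2 scale.

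The myeloid factors Spi1 and Gfi1 had their lowest fresh level in CFU-E and were higher in Ter119+ cells. Lyl1, Fli1 and Erg shared this order, Erg within its counting error. Only Spi1 and Lyl1 were called higher in Ter119+ cells than in CFU-E. Spi1 had 17.2, 0.985 and 4.49 normalised RPKM in BFU-E, CFU-E and Ter119+ cells, from 681, 52 and 67 reads. CFU-E were 17.5-fold lower than BFU-E (interval 13.0 to 23.4), and Ter119+ cells were 4.56-fold higher than CFU-E (interval 3.12 to 6.66) yet 3.83-fold lower than BFU-E. Because Gata1 stood at 169, 164 and 557 normalised RPKM, the Gata1 to Spi1 ratio was 9.80 in BFU-E, 167 in CFU-E and 124 in Ter119+ cells. Gfi1 had 0.410, 0 and 0.903 normalised RPKM, from 23, 0 and 19 reads. By the exact intervals, CFU-E were at least 7.59-fold lower than BFU-E and, with scaling, Ter119+ cells at least 16.5-fold higher than CFU-E. With 3 reads set in place of 0, the values were 10.1-fold and 22.1-fold. Its paralog Gfi1b had 123, 174 and 309 normalised RPKM.

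**Figure D1:**
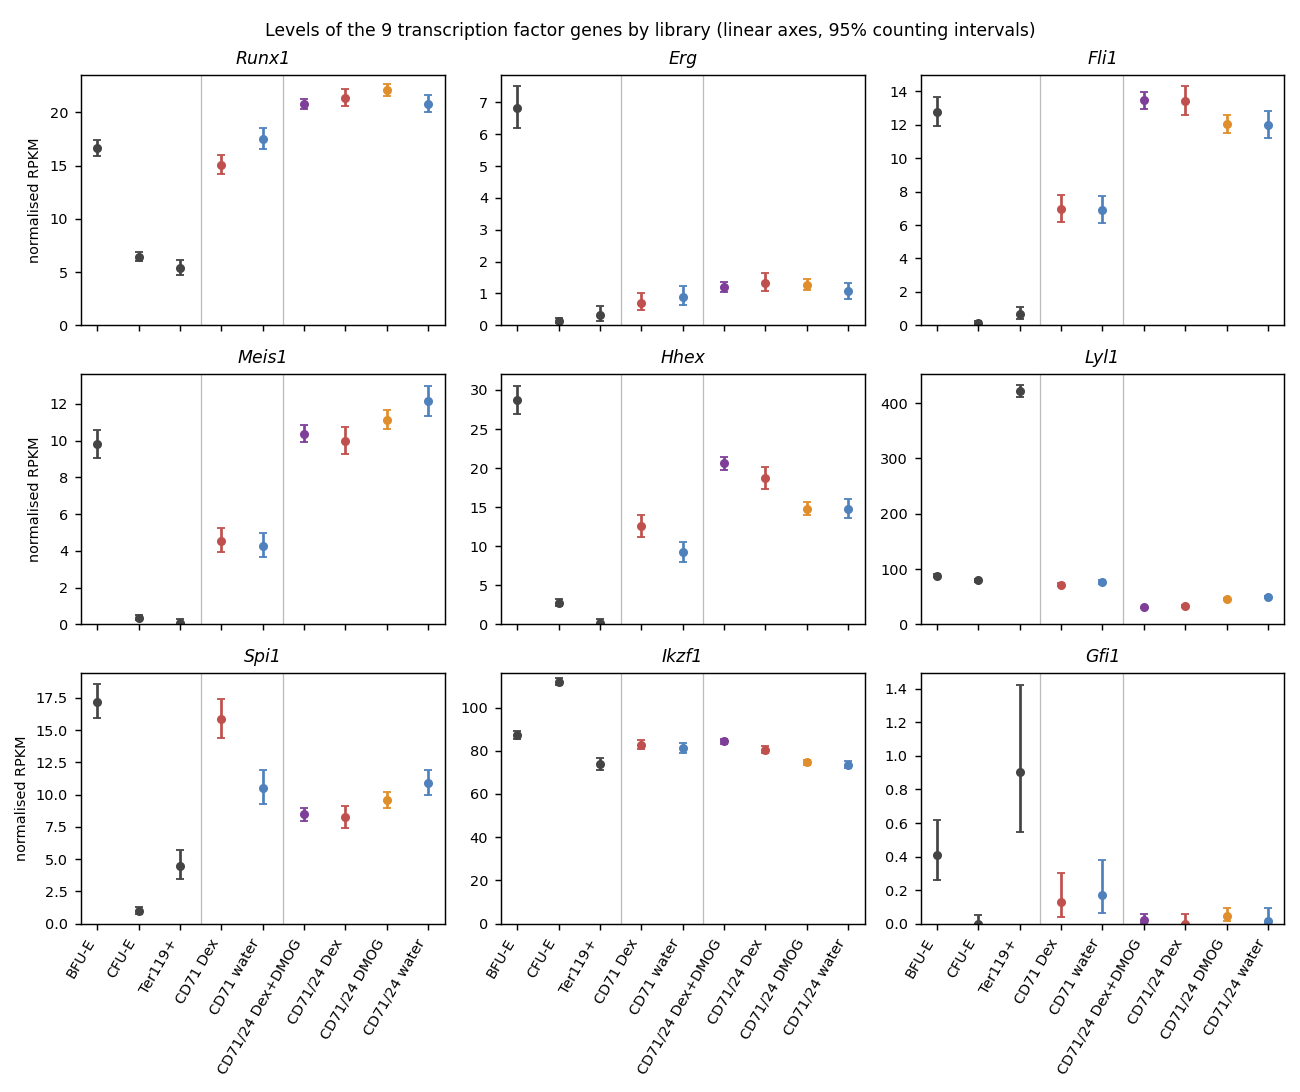
Normalised RPKM (linear vertical axes) of the 9 genes in the 9 libraries, each dot 1 library with its exact 95% counting interval; grey lines part the fresh stages, the CD71 sort and the CD71/CD24a sort. Erg and Hhex peak in BFU-E, Lyl1 peaks at 422 in Ter119+ cells, and Fli1 (12.0 to 13.5) and Meis1 (9.97 to 12.1) in the CD71/CD24a sort cultures lie beside their fresh BFU-E levels.

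**Figure D2:**
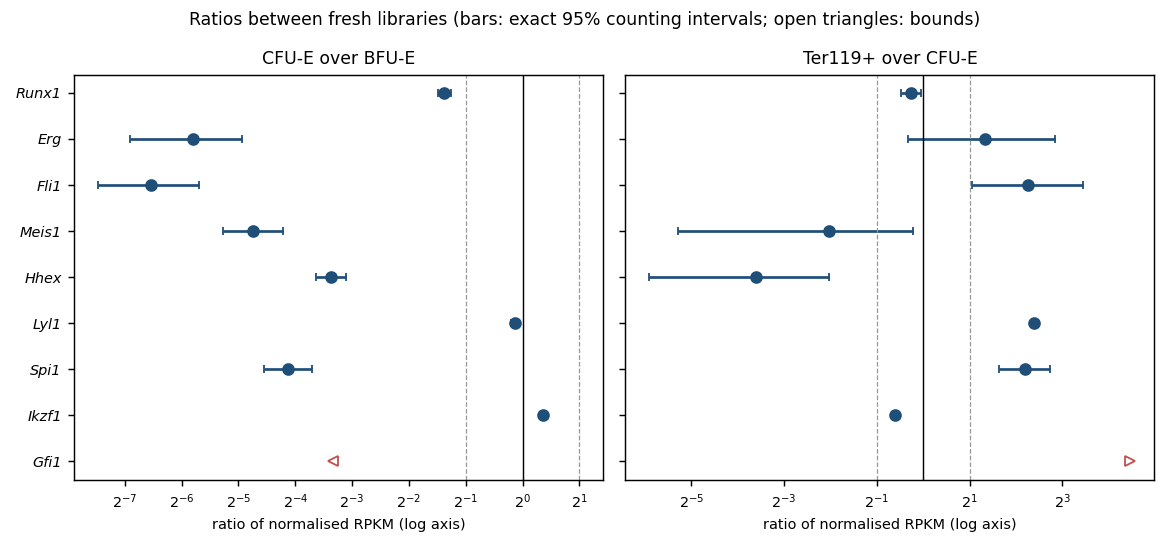
Ratios of normalised RPKM on a log axis, CFU-E over BFU-E at left and Ter119+ cells over CFU-E at right, with exact 95% counting intervals and 2-fold lines dashed. Open triangles mark the ratio with 3 reads set in place of 0, where 1 library had 0 reads. At left 6 genes lie beyond the lower 2-fold line with Fli1 furthest, as does the Gfi1 triangle. At right Lyl1 (5.26), Fli1 (4.81), Spi1 (4.56), Erg (2.52) and the Gfi1 triangle lie beyond the upper line. Of these, only Lyl1 and Spi1 were called, and the Erg interval includes no difference. Hhex and Meis1 lie beyond the lower line at right, and only Hhex was called.

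Between Ter119+ cells and CFU-E, 2 members were called higher (Lyl1 and Spi1) and 1 lower (Hhex) among the 5 that reached 1 normalised RPKM. Of all 9530 expressed genes, 22.6% were called higher and 28.8% lower. Relative to BFU-E, Ter119+ cells were higher for 1 member (Lyl1) and lower for 6, while 21.2% of 10249 expressed genes were higher and 35.8% were lower. The Ter119+ values depend on the scaling. Without it the median of all expressed genes between Ter119+ cells and CFU-E was -1.30 on the log2 scale, against -0.21 with it, and 12.3% of the called genes were higher, against 44.0%. The Lyl1 difference was then 1.01, against 2.38 with scaling, and Spi1 at 0.48, Runx1 at -1.29 and Ikzf1 at -1.94 changed sides of the 2-fold limit. Relative to BFU-E, Ter119+ cells were then higher for 0 members and lower for 7, since Lyl1 was at 0.91 and Ikzf1 at -1.54, and 12.6% of all called genes were higher, against 37.1% with scaling.

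Genes of other cell types were higher in Ter119+ cells than in CFU-E, as were Spi1, Gfi1, Fli1 and Lyl1. The summed level of 16 neutrophil and mast cell genes was 101, 5.10 and 215 normalised RPKM in BFU-E, CFU-E and Ter119+ cells. Of these 16, 11 reached 1 normalised RPKM in Ter119+ cells and only 2 in CFU-E. The 11 that passed the filter did so mostly through Ter119+ cells. That all 11 were called higher there, against 22.6% of all expressed genes, is therefore largely set by the filter. Mpo had 71.5, 2.09 and 57.3 normalised RPKM, Elane 0.832, 0.588 and 25.9, and S100a8 0, 0 and 20.8. A macrophage list, of which 10 of 11 genes were in the files, summed to 7.26, 1.66 and 42.9 normalised RPKM. Its 7 expressed genes were all higher in Ter119+ cells than in CFU-E, but they passed the filter only through Ter119+ cells. Without scaling 10 neutrophil and mast cell genes and 4 macrophage genes were higher. The part of these cells in the Spi1, Gfi1, Fli1 and Lyl1 levels was not tested. In bulk RNA, fewer cells of a type and less RNA per cell cannot be told apart.

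Megakaryocyte and endothelial genes, whose lineages express some of the members too, were in part lower in CFU-E than in BFU-E, with 4 of 8 expressed megakaryocyte genes and 3 of 4 expressed endothelial genes called. The megakaryocyte list (10 of 11 genes in the files) summed to 111, 20.0 and 97.7 normalised RPKM in BFU-E, CFU-E and Ter119+ cells, with none at 0, and the 10 endothelial genes to 45.3, 23.7 and 4.78. Of these 10, Cdh5 had 0.640, 0.0775 and 0.854 normalised RPKM and Kdr 0.431, 0.0284 and 0.600, all below 1. Eng had 29.7, 23.1 and 1.55. Tek and Tie1 were called lower in CFU-E than in BFU-E, at -2.28 and -1.69 on the log2 scale. Between Ter119+ cells and BFU-E they lay at -2.31 and -1.42. The Ter119+ values again depend on the scaling. Pecam1, which blood progenitors share with endothelium, had 6.88, 0.178 and 0.168. Hepatocytes, which express Hhex, had 10 genes that summed to 35.5, 13.0 and 27.98 normalised RPKM, with Alb at 10.02, 3.74 and 10.3. Lymphoid markers summed to 10.1, 1.33 and 10.5 normalised RPKM over 9 genes. Different genes made up most of these sums, Cd79b in BFU-E (8.14, against 0.909 in Ter119+ cells) and Lck in Ter119+ cells (9.28, against 0.781 in BFU-E). Whether such cells contributed to the BFU-E levels of the members was not tested.

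The partners and relatives of the 9 genes were read from 102 genes in 11 lists. Among the 73 expressed in CFU-E or BFU-E, 31 were lower in CFU-E and 2 were higher, with a median difference of -0.52 on the log2 scale. Of the other heptad factors, Gata2, which maintains stem and early progenitor cells, had 82.9, 1.26 and 0.210 normalised RPKM in BFU-E, CFU-E and Ter119+ cells. Lmo2, the bridging protein of the Tal1 complex, had 206, 142 and 692, and like Tal1 it was called only in Ter119+ cells, where both were higher than in CFU-E. Thus the heptad divided into Erg, Fli1, Runx1 and Gata2, called lower in CFU-E than in BFU-E, and Lyl1, Tal1 and Lmo2, called higher in Ter119+ cells than in CFU-E. Without scaling Lmo2 was at 0.91 on the log2 scale, short of the limit, and Tal1 at 1.32.

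Family by family, the lower genes were spread over most lists. In the RUNX list 3 of 4 expressed genes were lower in CFU-E, among them Cbfb, the DNA-binding partner of all RUNX proteins, at 1.94 normalised RPKM in CFU-E against 20.4 in BFU-E. Of the MEIS, PBX and HOX list 3 of 7 were lower, with Hoxa9 at 0 in CFU-E against 2.16 in BFU-E. In the ETS list 4 of 10 were lower (Elk3, Elf4, Etv6 and Elf1), Etv6 being at 7.48 in CFU-E against 27.4 in BFU-E. Among further stem cell regulators 4 of 8 were lower (Mycn, Myb, Nfe2 and Hlf), with Myb at 65.7 against 219.9 and Mycn at 0.0297 against 5.54. Of the myeloid and lymphoid factors 3 of 5 were lower, Cebpa, the granulocyte regulator, being at 0.0877 in CFU-E against 4.22 in BFU-E.

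No call was made among the 6 expressed E proteins, ID proteins and LDB1, the dimer partners of Lyl1 and Tal1, nor among Gfi1b and its 5 corepressors. Tcf3, which encodes the E proteins E12 and E47, was at 183 normalised RPKM in CFU-E against 173 in BFU-E, and Ldb1 was at 213 against 252. In the erythroid list 2 of 8 factors were higher in CFU-E (Trim10 and Klf3), and all 8 were higher in Ter119+ cells than in CFU-E, or 4 without scaling. Genes described as PU.1 or RUNX1 targets showed 12 of 14 expressed genes lower in CFU-E. Coro1a, an actin regulator of leukocytes, was at 1.28 in CFU-E against 88.6 in BFU-E, and the integrin gene Itgal at 0.288 against 32.8. In Ter119+ cells, 4 of 10 target genes were higher than in CFU-E (Ncf4, Coro1a, Csf1r and Csf2rb) and 3 were lower, Spn being at 8.45 in Ter119+ cells against 100.3 in CFU-E.

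**Figure D3:**
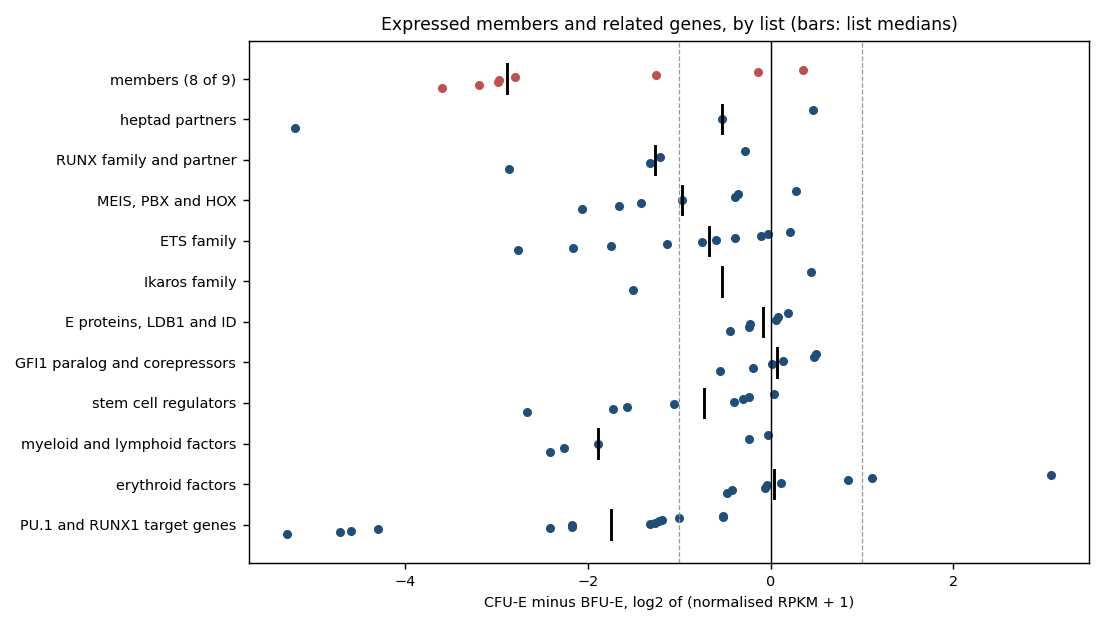
Difference between CFU-E and BFU-E in log2(normalised RPKM + 1) for the 8 expressed members (red) and the expressed genes of 11 related lists (blue), with list medians as bars and the 2-fold limits dashed. The member median is -2.89, with 6 genes beyond the lower limit, and the E protein and Gfi1b lists have no gene beyond either limit.

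Promoter sequence was examined for motifs of the members' own families, since several members had low CFU-E levels together. RefSeq windows on build GRCm38.p6, from 250 bases before to 50 after a gene's start, covered 7 members with 12 windows. Fli1 and Spi1 had no window. A window is shown for 1 gene with a moderate CFU-E difference (Runx1, from the upstream of its 2 starts), for both homeobox genes and for Lyl1, the gene highest in Ter119+ cells. Capitals mark the ETS letters AGGAAG or the RUNX letters TGTGGT, read on either strand, so that TGTGGT appears as ACCACA on the other strand.
Runx1 (chr16:92826025-92826324, minus strand): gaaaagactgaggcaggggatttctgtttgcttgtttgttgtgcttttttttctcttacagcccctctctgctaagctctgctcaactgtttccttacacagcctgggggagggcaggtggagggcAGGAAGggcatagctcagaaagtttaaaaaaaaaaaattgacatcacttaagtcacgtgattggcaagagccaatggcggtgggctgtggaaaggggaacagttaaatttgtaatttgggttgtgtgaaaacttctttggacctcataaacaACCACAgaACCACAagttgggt
Meis1 (chr11:19018920-19019219, minus strand): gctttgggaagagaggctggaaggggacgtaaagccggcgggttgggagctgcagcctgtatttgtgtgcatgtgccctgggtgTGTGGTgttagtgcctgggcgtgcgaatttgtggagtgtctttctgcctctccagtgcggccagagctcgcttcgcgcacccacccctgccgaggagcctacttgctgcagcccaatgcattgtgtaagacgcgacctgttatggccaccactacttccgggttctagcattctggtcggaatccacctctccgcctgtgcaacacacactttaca
Hhex (chr19:37434591-37434890, plus strand): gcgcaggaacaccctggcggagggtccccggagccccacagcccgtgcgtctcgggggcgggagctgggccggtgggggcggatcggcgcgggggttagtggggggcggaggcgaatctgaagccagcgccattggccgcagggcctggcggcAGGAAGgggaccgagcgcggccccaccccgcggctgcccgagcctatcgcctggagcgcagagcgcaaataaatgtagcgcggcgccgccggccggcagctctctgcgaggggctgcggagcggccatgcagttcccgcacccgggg
Lyl1 (chr8:84701207-84701506, plus strand): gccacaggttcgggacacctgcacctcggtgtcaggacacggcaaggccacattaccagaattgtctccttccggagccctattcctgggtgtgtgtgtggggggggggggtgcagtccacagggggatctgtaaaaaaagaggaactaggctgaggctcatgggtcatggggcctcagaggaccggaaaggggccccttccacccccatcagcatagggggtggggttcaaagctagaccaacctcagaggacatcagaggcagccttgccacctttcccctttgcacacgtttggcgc
The Runx1 window held 2 RUNX matches close together just after the start and 1 ETS match, Meis1 held 1 RUNX match, Hhex 1 ETS match, and Lyl1 none. Among the windows not shown, 1 of Ikzf1, a gene not lower in CFU-E, held 3 ETS matches. A Gfi1 window and an Erg window held 1 ETS match each. The other windows of Ikzf1, Gfi1, Erg and Runx1 held no ETS or RUNX match. Over all 12 member windows, 5 held AGGAAG and 2 held TGTGGT, against 35.4% and 16.8% of all 32851 windows. The GATA letters AGATAA stood in 1 member window (11.2% of all), the MEIS letters TGACAG in 1 (19.2%) and the E-box CAGCTG in 0 (16.3%). A match is a run of letters, not a bound site.

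Culture conditions were compared with fresh BFU-E next, again with 1 library each. In the water arm of the CD71 sort, 3 of the 9 genes were lower than in fresh BFU-E (Erg, Hhex and Meis1) and none was higher, where 9.06% of 10060 expressed genes were lower and 6.27% higher. In the water arm of the CD71/CD24a sort only Erg was lower and none was higher, where 12.9% of 10080 were lower and 11.2% higher, or 58.2% of the called genes higher without scaling against 46.3% with it. Culture and the preparation of cells cannot be told apart here.

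Among the 8 members that reached 1 normalised RPKM, Erg was furthest below fresh BFU-E in both sorts. It had 0.891 normalised RPKM in CD71 sort water cells and 1.06 in CD71/CD24a sort water cells, against 6.82 in fresh BFU-E, which is 7.66-fold lower (interval 5.42 to 11.1) and 6.42-fold lower (interval 5.02 to 8.35). The 4 arms with an agent lay at 0.700 to 1.34, so all 6 cultures were far below the fresh cells. Hhex had 9.23 and 14.8 normalised RPKM in the same water arms, against 28.7 in fresh BFU-E. Fli1, the close relative of Erg, had 6.89 and 12.0, against 12.8, and was thus not called in either sort. Runx1 at 17.5 and 20.8, against 16.7, was level with or slightly above fresh BFU-E.

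In all 6 cultures these 6 genes stood above their fresh CFU-E levels. The lowest culture value was 0.700 for Erg, 6.89 for Fli1, 4.27 for Meis1, 9.23 for Hhex, 8.27 for Spi1 and 15.1 for Runx1, against 0.122, 0.138, 0.366, 2.79, 0.985 and 6.42 in fresh CFU-E. The Gata1 to Spi1 ratio was 8.59 to 15.7 in the cultures, near the 9.80 of fresh BFU-E and far from the 167 of fresh CFU-E. Gfi1 had 0 to 6 reads in each culture, at most 0.172 normalised RPKM. Of the related genes, Hoxa9 was at 0.186 to 0.649 normalised RPKM in the cultures against 2.16 in fresh BFU-E, and Myb at 66.4 to 83.7 against 219.9.

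Between the sorts, Meis1 was called in the water arms and Lyl1 in the Dex arms. Meis1 had 12.1 normalised RPKM in the CD71/CD24a sort water arm and 4.27 in the CD71 sort water arm, 2.84-fold higher (interval 2.41 to 3.36), and was the only member called (1.44% of 9737 expressed genes were called higher and 3.07% lower). Between the Dex arms Meis1 had 9.97 and 4.56, just inside the limit at 0.98 on the log2 scale. Lyl1 had 33.6 normalised RPKM in the CD71/CD24a sort Dex arm and 72.2 in the CD71 sort Dex arm, 2.15-fold lower (interval 2.00 to 2.31) and the only member called there, where 4.60% of 9688 genes were lower and 3.67% higher. Without scaling, an alternative added after seeing the data, Lyl1 was at -0.93 between the Dex arms and not called, while Meis1 at 1.13 and Fli1 at 1.01 were. In water Lyl1 had 49.96 and 76.2. Fli1 was 1.74-fold higher in the CD71/CD24a sort than in the CD71 sort in water and 1.93-fold higher in Dex, short of the limit. Without scaling, 63.2% of the genes called in water were higher, against 31.9% with it, and in Dex 68.5%, against 44.4%.

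Other lists also differed between the sorts. The neutrophil and mast cell genes summed to 5.52 to 6.56 normalised RPKM in the 4 CD71/CD24a sort libraries and 27.7 to 28.04 in the 2 CD71 sort libraries, with S100a9 at 0 to 0.0665 and 1.18 to 1.21. Cebpb, a myeloid factor, was at 2.67 in the CD71/CD24a sort water arm against 18.1 in the CD71 sort water arm. Of the erythroid factors 3 of 8 were lower in the water arm of the CD71/CD24a sort (Zfpm1, Klf1 and Foxo3), Klf1 being at 75.4 against 165. The 10 erythroid markers summed to 447 normalised RPKM in the CD71/CD24a sort water arm against 1570 in the CD71 sort water arm, and to 418 against 1010 in the Dex arms. Of these, Hbb-bt had 119 in the CD71/CD24a sort water arm against 822 in the CD71 sort water arm, and Hba-a1 had 5.12 against 281. The 10 hepatocyte genes summed to 13.8 in the CD71/CD24a sort water arm against 3.86 in the CD71 sort water arm. The sorts were separate preparations, and the part of these genes in the Meis1 and Lyl1 differences was not tested.

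The Dex question was asked within the 3 culture pairs that shared cells, namely the CD71 sort, the CD71/CD24a sort, and the CD71/CD24a sort with DMOG in both arms. None of the 8 members tested passed limma with Benjamini-Hochberg adjustment over 9535 genes (adjusted p under 0.05), where 2.02% of all genes passed, 133 higher and 60 lower. At an unadjusted p under 0.05, 2 members (Hhex and Lyl1) and 16.2% of all genes passed. Gfi1 was below the filter of 1 normalised RPKM. No label gives separate cultures of 1 arm, so these p-values measure only the spread between these libraries.

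Hhex lay nearest to the threshold. It had 12.5, 18.7 and 20.6 normalised RPKM in the Dex arms of the 3 pairs, in the order above, against 9.23, 14.8 and 14.8 in their partners without Dex. The Dex arm was the higher in 3 of 3 pairs. The mean difference was 0.39 ± 0.07 on the log2 scale (SE), with a limma Benjamini-Hochberg adjusted p of 0.0567.

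Lyl1 had 72.2, 33.6 and 31.1 normalised RPKM in the Dex arms of the 3 pairs, against 76.2, 49.96 and 45.6 in their partners. The Dex arm was the lower in 3 of 3 pairs, by 0.08, 0.56 and 0.54 on the log2 scale. The mean was -0.39 ± 0.11 (SE), with a limma Benjamini-Hochberg adjusted p of 0.165. Without the CD71 sort pair, Lyl1 was -0.55 with an adjusted p of 9.67e-05 and Hhex 0.39 with an adjusted p of 0.00382 (limma, Benjamini-Hochberg), in a fit of 4 libraries that called 1254 genes in all. Over all alternatives the adjusted p ran from 9.67e-05 to 1 for Lyl1 and from 0.00382 to 1 for Hhex, the value of 1 being that of the fit without pairs.

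Spi1 went opposite ways in the sorts. It had 15.8 normalised RPKM with Dex against 10.5 with water in the CD71 sort, then 8.27 with Dex against 10.9 with water and 8.47 with Dex and DMOG against 9.57 with DMOG in the CD71/CD24a sort. The Dex differences were 0.54, -0.36 and -0.16 on the log2 scale, and their mean was 0.01 ± 0.17 (SE). A limma term for the Dex difference by sort gave -0.80 ± 0.14 for Spi1 (Benjamini-Hochberg adjusted p of 0.00849) and -0.47 ± 0.11 for Lyl1 (adjusted p of 0.0355), with the CD71/CD24a sort below the CD71 sort. That fit had 1 residual degree of freedom, which comes only from the 2 CD71/CD24a sort pairs of the same cells, so no spread between preparations enters these p-values. It called 6.03% of all genes (332 higher and 243 lower, or 202 and 253 without scaling) and has a single CD71 sort pair on its other side. Without the trend, the adjusted p was 0.0206 for Spi1 and 0.0873 for Lyl1. With every gene kept rather than filtered, the adjusted p was 0.419 for Spi1 and 0.355 for Lyl1, and no gene of the 19840 was called.

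**Figure D4:**
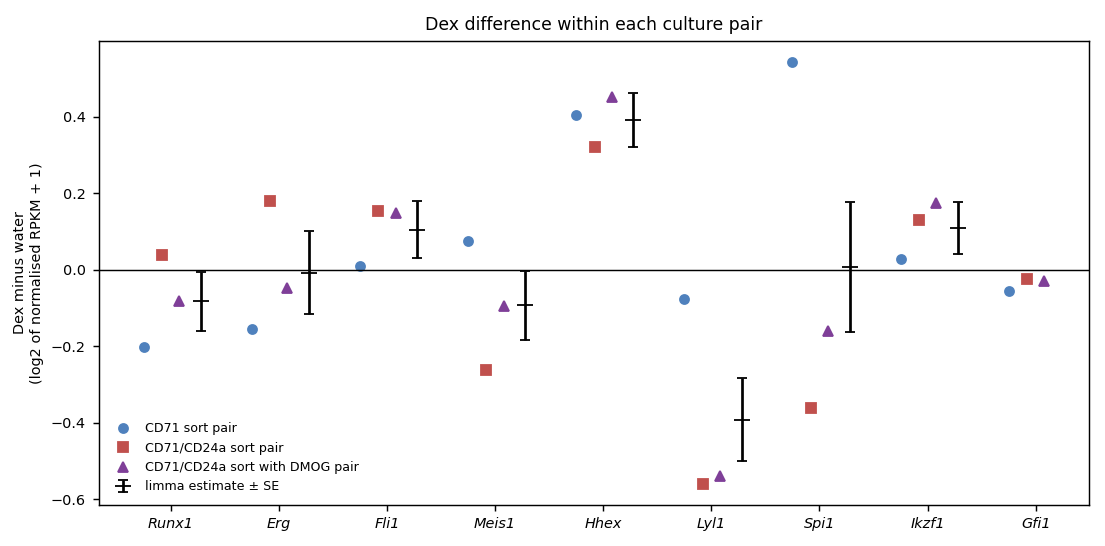
Dex minus partner without Dex in log2(normalised RPKM + 1) for each gene in the CD71 sort pair (circles), the CD71/CD24a sort pair (squares) and that sort with DMOG (triangles), with the limma estimate and its SE in black (not given for Gfi1). Hhex lies above 0 and Lyl1 below 0 in all 3 pairs, and Spi1 is at 0.54 in the CD71 sort and below 0 in both other pairs.

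The remaining 5 genes differed little with Dex. Their limma estimates were 0.11 ± 0.07 for Ikzf1, 0.10 ± 0.07 for Fli1, -0.08 ± 0.08 for Runx1, -0.09 ± 0.09 for Meis1 and -0.01 ± 0.11 for Erg (SE), with adjusted p from 0.462 to 0.981. Ikzf1 and Fli1 were higher with Dex in 3 of 3 pairs, by at most 0.17 and 0.15 on the log2 scale. Of the 63 related genes tested, none rose and 5 fell with Dex, where 1.39% of all 9535 genes were called higher and 0.629% lower. The 5 were Lmo2 (-0.69), the ID protein gene Id1 (-0.74), Mycn (-0.62), the GATA1 cofactor gene Zfpm1 (-0.71) and the cytokine receptor gene Csf2rb (-0.87), with limma Benjamini-Hochberg adjusted p from 0.00965 to 0.0321. Gata2 had 19.7, 20.3 and 19.7 normalised RPKM in the Dex arms of the 3 pairs, against 24.7, 41.6 and 40.8 in their partners. It was not called for the mean Dex difference, and its difference by sort was -0.69 ± 0.12 (SE; adjusted p of 0.00614).

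No member passed the test for DMOG. Among the 8 tested, limma differences between DMOG arms and their partners lay from -0.12 to 0.07 on the log2 scale, with SEs from 0.08 to 0.21 and Benjamini-Hochberg adjusted p of 0.999 for each. Over all genes 2 passed (0.0210%), and 347 had an unadjusted p under 0.05, none of them a member. Hhex, for example, had 20.6 with Dex and DMOG against 18.7 with Dex, and 14.8 with DMOG against 14.8 with water. The difference of the Dex response by DMOG was called for 0 members and 0 of 9535 genes by limma (275 at an unadjusted p under 0.05), the member values running from -0.25 for Spi1 to 0.10 for Ikzf1.

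Across the 9 libraries the members fell into groups by their own profiles, described here without a test since the 6 cultures share cells and the fresh stages dominate the spread. In log2(normalised RPKM + 1), Pearson's r was 0.98 for Fli1 and Meis1, 0.97 for Runx1 and Meis1 and 0.94 for Hhex and Meis1. Erg, which was low in culture, had r of 0.65 with Fli1 and 0.51 with Runx1. Lyl1 ran opposite to Hhex and Runx1, at -0.82 for both, and Ikzf1 had no r above 0 with any of the 7 other members compared. Among 9697 genes compared, the most alike profile was Dapp1 for Fli1 (0.997), Anxa5 for Runx1 (0.997), Sptbn1 for Hhex (0.997), Parp4 for Meis1 (0.993), Vill for Erg (0.990), Zc3h4 for Lyl1 (0.990) and Tnfrsf1b for Spi1 (0.957).

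Counting could mix some members with neighbours. Meis1 overlaps Gm37818 on the same strand, so their reads cannot be told apart where they overlap. By exact 32-base words of the GRCm38 transcripts, at most 2.77% of a member's sequence (Hhex) was shared with another gene. Lyl1 overlaps Nfix, Runx1 overlaps Gm26626 and Gfi1 overlaps A430072P03Rik on the opposite strand, and whether strand was used in counting is not given in the sources used here. Nfix had 18.7, 13.0 and 6.34 normalised RPKM in BFU-E, CFU-E and Ter119+ cells, lowest in the stage where Lyl1 was highest. In the cultures Nfix and Lyl1 were lower in the CD71/CD24a sort than in the CD71 sort, and lower with Dex in each pair. Nfix had 14.1 with Dex and 15.9 with water in the CD71 sort, against 72.2 and 76.2 for Lyl1. In the CD71/CD24a sort Nfix had 5.03 with Dex and 6.86 with water, against 33.6 and 49.96 for Lyl1. With DMOG in both arms, Nfix had 5.34 with Dex and 6.92 without, against 31.1 and 45.6 for Lyl1. Whether Nfix reads added to the Lyl1 differences was not tested.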

How the data were processed

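RNA of 9 conditions, 1 library each, had been sequenced as paired-end mRNA libraries, per the labels' protocols. The authors deposited RPKM values for 23041 RefSeq transcript records per library. The submitters' processing notes name mouse build mm9, and aligner and counter are not given in the sources used here. Records were matched to symbols through RefSeq tables (22393 records) and the GENCODE annotation (118), and 530 had none. An exact 1 in the 4 CD71/CD24a files, which hold no 0, was read as 0. Libraries were scaled by the median ratio over 6888 genes, and log2(normalised RPKM + 1) was used throughout, which understates changes of low genes.

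Depth was recovered from the steps of low RPKM values: 67.0% to 69.9% of values up to 10 reads were whole within 0.1 reads, where 20% would be by chance. Cultured libraries (genes at 1 normalised RPKM or more) were fitted with limma 3.58.1 in R 4.3.3 (mean-variance trend, culture pair as block, 2 residual degrees of freedom) with Benjamini-Hochberg adjustment. The pairs are arms of the same cells, per the treatment protocol, and the correlations of their deviations were 0.808, 0.770 and 0.701. Those deviations include the difference between the sorts, so the correlations cannot tell pairing from sort. The fit was tested on simulated data.

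The members and the related lists were chosen with earlier results of these data known. Named genes are the 9 members and list genes that passed, with partners given for scale. Alternatives changed pseudocount, filter, scaling, records, trend, block and pairs. Some genes of the related lists are counted but not reported here by name.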

Additional observations from a re-analysis of the deposited data

Results flagged for a closer look

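The Dex difference was not the same in the sorts for 2 members in these libraries, by a limma fit across all cultured libraries with a term for this difference. For Spi1 it was -0.80 on the log2 scale (0.54 in the CD71 sort, against -0.36 and -0.16 in the CD71/CD24a sort), with a Benjamini-Hochberg adjusted p of 0.00849 and a range of 0.00603 to 0.419 over its alternatives. For Lyl1 it was -0.47 (-0.08 in the CD71 sort, against -0.56 and -0.54 in the CD71/CD24a sort), with an adjusted p of 0.0355 and a range of 0.031 to 0.355. The CD71 sort side is 1 pair from 1 preparation of cells, so sort and preparation cannot be told apart, and the residual spread comes only from the 2 CD71/CD24a sort pairs of the same cells, so no spread between preparations enters these p-values. With no filter 0 genes were called, and with limma without trend Lyl1 was not (adjusted p of 0.0873).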

How the results depend on the processing

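In the fresh comparisons, between the water arms of the sorts and between each water arm and fresh BFU-E, the counts of called members stayed within 1.5 times under the alternatives run, but without scaling Ter119+ cells had 1 higher and 3 lower than CFU-E (against 2 and 1) and 0 higher and 7 lower than BFU-E (against 1 and 6). Between the Dex arms of the sorts, where alternatives were added after seeing the data, 2 members were called without scaling (Meis1 and Fli1) and 2 with a pseudocount of 0.1 (Meis1 and Lyl1), against 1 (Lyl1). No called member difference changed sign in these comparisons. For Dex, leaving out 1 culture pair gave 0 to 2 called members, the 2 being Hhex and Lyl1 without the CD71 sort pair, and the cause was not tested. The fit without that pair used arms of the same sorted cells only. The fit without the pair block called 0 members and 14 genes, against 193 with the block. Leaving out a pair gave 132 to 1254 called genes, and no filter gave 0. For DMOG, 0 genes (pseudocount of 0.1) to 7 (no filter) passed, against 2. For Dex by sort, alternatives added after seeing the data called 0 members with no filter, when all 19840 names were tested, and 1 member with limma without trend (Spi1, adjusted p of 0.0206; Lyl1 0.0873, Benjamini-Hochberg), and 336 genes, against 575. Depth limits Gfi1 in all libraries, Erg and Fli1 in CFU-E (10 and 12 reads), and Erg, Fli1, Meis1 and Hhex in Ter119+ cells.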
